A study of Mus musculus with 9 samples.

Results

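The posterior HoxD window is a stretch of 835 kb on mouse chromosome 2 (73700000 to 74535000, build mm9) that holds a gene desert with digit enhancers and, after it, the genes Lnp, Evx2, Hoxd13, Hoxd12, Hoxd11 and Hoxd10. Its members are the chromatin immunoprecipitation (ChIP-seq) peaks of 2 homeodomain proteins, Hoxa13 and Hoxa11, that start inside it. They number 181 of 243649 peaks in all. All 5 peak lists come from wild-type embryos of the ICR strain and were made with home-made antibodies. For Hoxa13 there was 1 library per stage: 11 pairs of autopods (the hand and foot region) pooled at embryonic day 11.0 (E11.0), the whole limb buds of a litter at E11.5, and E12.5 limb buds. The Hoxa11 libraries, replicates 1 and 2, were both of E11.5 limb buds, and the labels do not say whether these were separate litters. The E12.5 library was made by another procedure than the rest, so stage, tissue and procedure cannot be told apart between the Hoxa13 lists. Peak lists carry no expression, so the labelled tissue was not checked against marker genes. All positions below are counted from 1 in mm9.

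The HoxD cluster lies between a pair of gene deserts that act as regulatory landscapes. In the early limb bud the desert beyond Hoxd1 drives the cluster in the future arm and forearm. Later the desert on the other side, beyond Evx2 and Lnp, drives the posterior genes in the future digits. Hoxa13 and its relative Hoxd13 are known to be needed for that later phase and to bind the digit landscape, while Hoxa11 acts in the zeugopod, the forearm and lower leg. Hoxd13 encodes the last homeodomain protein of the cluster and is altered in human synpolydactyly. Hoxd12, Hoxd11 and Hoxd10 follow it, and Hoxd11 shares its forearm role with Hoxa11. Evx2 is a homeobox gene of the even-skipped family next to the cluster, and Lnp (current symbol Lnpk, lunapark) encodes a protein of endoplasmic reticulum junctions that is transcribed in digits under the same enhancers.

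The reference gene table, which is of the later build GRCm38.p6, gives the protein-coding order Lnp, Evx2, Hoxd13, Hoxd12, Hoxd11, Hoxd10, with Hoxd9 next and Atp5g3 before Lnp. Only this order was used, because positions of different builds were not mixed. Peaks are therefore located by their distance from the end of the window nearest Hoxd10, and no peak was assigned to a single gene or promoter. By this order the Hoxd genes are nearest that end, and the desert is at the other.

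The promoters of the member genes differ in composition and in the HOX-type words they hold. RefSeq sequence of GRCm38.p6 was matched for all 6 genes, in 7 promoters, since Hoxd11 has an entry for each of 2 starts. The 250 bases before the start were searched on both strands for CAATAAA, a HOX13-type word, for TCGTAAA, a posterior HOX word, and for TAATTA, a homeodomain core that reads the same on both strands. None of these words lies inside another. Evx2 held CAATAAA once, beginning 134 bases before the start, a word found in 4.2% of 32851 mouse promoter entries of the same length. Both Hoxd11 promoters held TAATTA once, beginning 81 and 87 bases before the start, against 4.84% of all entries. TCGTAAA, present in 0.478% of all entries, was in none of the 7. Lnp, Hoxd13, Hoxd12 and Hoxd10 held none of the 3 words in this window. The share of G and C ran from 44.8% in the first Hoxd11 promoter and 45.6% in Evx2 to 74.4% in Hoxd13, with a median of 52.4% over all entries. Evx2 and Hoxd11 are shown because they hold the words, which are in capitals, and Hoxd13 because it heads the cluster. They are written 5′ to 3′ along the gene, at chr2:74659558-74659807 (minus strand), chr2:74667975-74668224 (plus strand) and chr2:74679308-74679557 (plus strand), all in GRCm38.p6 and not on the scale of the peaks.
Evx2: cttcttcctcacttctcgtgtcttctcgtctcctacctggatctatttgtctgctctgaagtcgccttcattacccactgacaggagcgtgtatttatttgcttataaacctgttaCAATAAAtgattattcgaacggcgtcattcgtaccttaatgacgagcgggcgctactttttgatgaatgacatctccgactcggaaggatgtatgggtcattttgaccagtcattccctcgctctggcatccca
Hoxd13: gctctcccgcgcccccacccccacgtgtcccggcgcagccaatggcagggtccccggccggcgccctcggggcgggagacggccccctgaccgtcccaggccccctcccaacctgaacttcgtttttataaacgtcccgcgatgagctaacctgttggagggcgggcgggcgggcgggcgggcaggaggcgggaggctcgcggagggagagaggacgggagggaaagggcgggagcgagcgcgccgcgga
Hoxd11: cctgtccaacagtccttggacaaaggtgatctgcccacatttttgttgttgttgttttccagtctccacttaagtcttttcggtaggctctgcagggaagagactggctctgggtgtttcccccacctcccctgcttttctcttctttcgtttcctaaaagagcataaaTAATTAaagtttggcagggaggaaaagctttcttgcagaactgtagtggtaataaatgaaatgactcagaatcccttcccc
These matches describe letters, and no ChIP value is attached to them.

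The window held more peaks than the mean of the list in each of the 5 lists, unevenly along its length. Hoxa13 gave 26 peaks in the E11.0 list, 108 in that of E11.5 and 36 in that of E12.5, and Hoxa11 gave 9 in replicate 1 and 2 in replicate 2. At the mean density of each list, 16.2, 46.2, 14.2, 0.932 and 0.515 peaks would fall in a stretch of this length. The window thus held 1.61 times the list mean at E11.0, 2.34 times at E11.5 and 2.54 times at E12.5, and 9.66 and 3.88 times for Hoxa11 replicates 1 and 2. The last ratio rests on 2 peaks. These are descriptions of single lists with no test: read depth is not known, and the 3 Hoxa13 lists differ in length (50890, 143460 and 44699 peaks). When each Hoxa13 list was limited to its 44699 widest peaks, the window held 25, 54 and 36 of them in the order of the stages.

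Set among windows of the same length laid over chromosomes 1 to 19, X and Y, the window ranked high for Hoxa13 at E11.5 and E12.5 and for Hoxa11 replicate 1. Of 3082 such windows, 38 (1.23%) held as many E11.5 peaks or more, the HoxD window included. At E12.5 the number was 65 (2.11%), and for Hoxa11 replicate 1 it was 25 (0.811%). At E11.0, in the early autopod, 482 windows (15.6%) held as many, so that list did not set the window apart in the same way. For Hoxa11 replicate 2, 292 windows (9.47%) held as many as its 2 peaks. Among the 213 windows on chromosome 2, none but the HoxD window itself reached its count of 108 at E11.5.

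The neighbouring stretches of the same length differed from each other. The window on the centromeric side, away from the cluster, held 18, 76 and 16 Hoxa13 peaks at the 3 stages, 1 peak of Hoxa11 replicate 1 and none of replicate 2. The window on the telomeric side, towards Hoxd9 by the gene order, held 31, 102 and 35 Hoxa13 peaks, close to the counts of the posterior HoxD window. Hoxa11 gave 10 peaks there in each replicate, against 9 and 2 in the posterior HoxD window. Replicate 2 thus listed fewer peaks in the posterior HoxD window than in the telomeric one, and replicate 1 listed about as many in both. By the gene order the telomeric window takes in the next genes of the cluster, so its peaks were not assigned to the forearm desert. A peak site lies on the boundary itself, just outside: the first peaks past the end start 110 bp (Hoxa13 E11.5), 304 bp (Hoxa13 E12.5), 243 bp (Hoxa11 replicate 1) and 106 bp (Hoxa11 replicate 2) beyond it, while the next E11.0 peak is 101450 bp away. With the window widened by 50 kb at both ends, Hoxa11 replicate 2 had 4 peaks in place of 2.

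**Figure D1:**
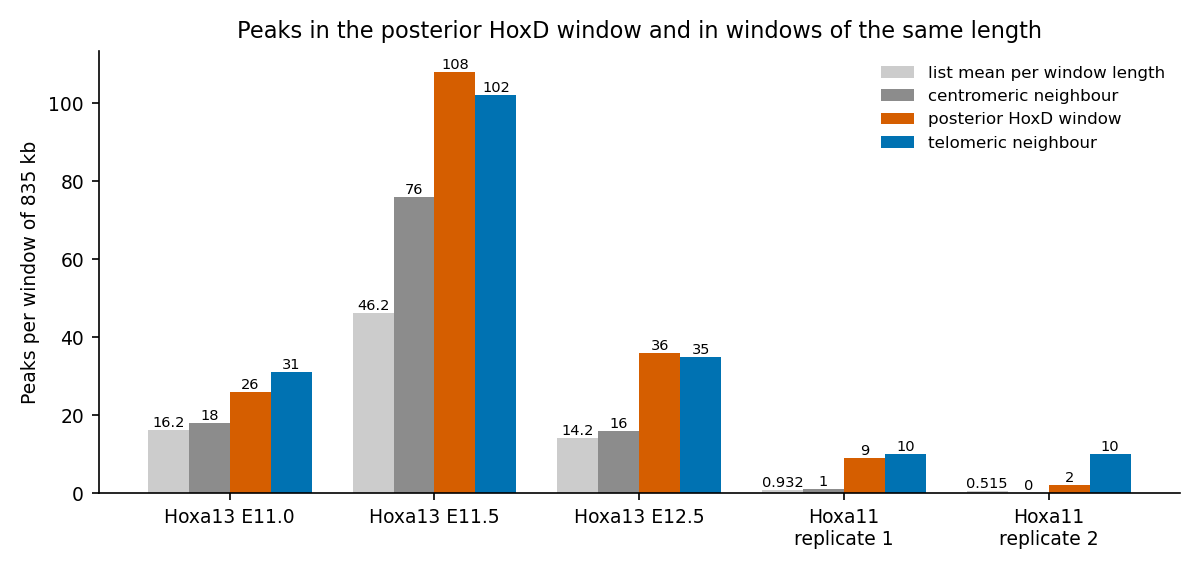
Number of peaks per list (horizontal axis) in the posterior HoxD window, in the neighbouring windows of the same length and at the mean density of the whole list (vertical axis, peaks per window of 835 kb). The HoxD window exceeds the list mean in all 5 lists, and its bars for Hoxa13 lie near those of the telomeric neighbour, while Hoxa11 replicate 2 has 2 peaks against 10.

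Along the window, Hoxa13 peaks were widely spread and gathered most between 100 and 200 kb from the end nearest Hoxd10. This stretch, from 74335001 to 74435000, held 9 of 26 peaks at E11.0 (34.6%), 22 of 108 at E11.5 (20.4%) and 9 of 36 at E12.5 (25%). It was the fullest of the 100 kb bins at each stage. Whether it lies in the desert or at a gene such as Lnp was not determined, since genes were not placed in mm9. The final 100 kb, nearest Hoxd10, held 3, 15 and 6 Hoxa13 peaks. In the final 50 kb the 3 stages had 2, 10 and 2, that is 40, 200 and 40 per Mb. Together the last 200 kb took 46.2% of E11.0 peaks (95% interval 26.6 to 66.6), 34.3% of E11.5 peaks (25.4 to 44) and 41.7% of E12.5 peaks (25.5 to 59.2), over 24% of the length. These intervals lie above the share of length, but the stretch includes the bin already picked as the fullest. The last 100 kb alone took 3 of 26 (interval 2.45% to 30.2%), 15 of 108 (7.99% to 21.9%) and 6 of 36 (6.37% to 32.8%) at the 3 stages over 12% of the length, and each interval contains that share, as do those of the last 50 kb. At E11.0 the density was 0 to 20 per Mb in 6 of the 9 bins, against 19.3 per Mb over the whole list.

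Next to that crowded stretch lay a sparse one. From 200 to 300 kb from the end, between 74235001 and 74335000, there was 1 Hoxa13 peak at E11.0, there were 7 at E11.5, and none was listed at E12.5. The longest run of the window without an E12.5 peak, 126457 bp, went from 74231615 to 74358073. At E11.0 the longest run, 81709 bp, went from 74139732 to 74221442, and at E11.5 it was 38506 bp, from 74312820 to 74351327. The median distance from one peak to the next was 20922 bp at E11.0, 4197 bp at E11.5 and 18483 bp at E12.5.

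**Figure D2:**
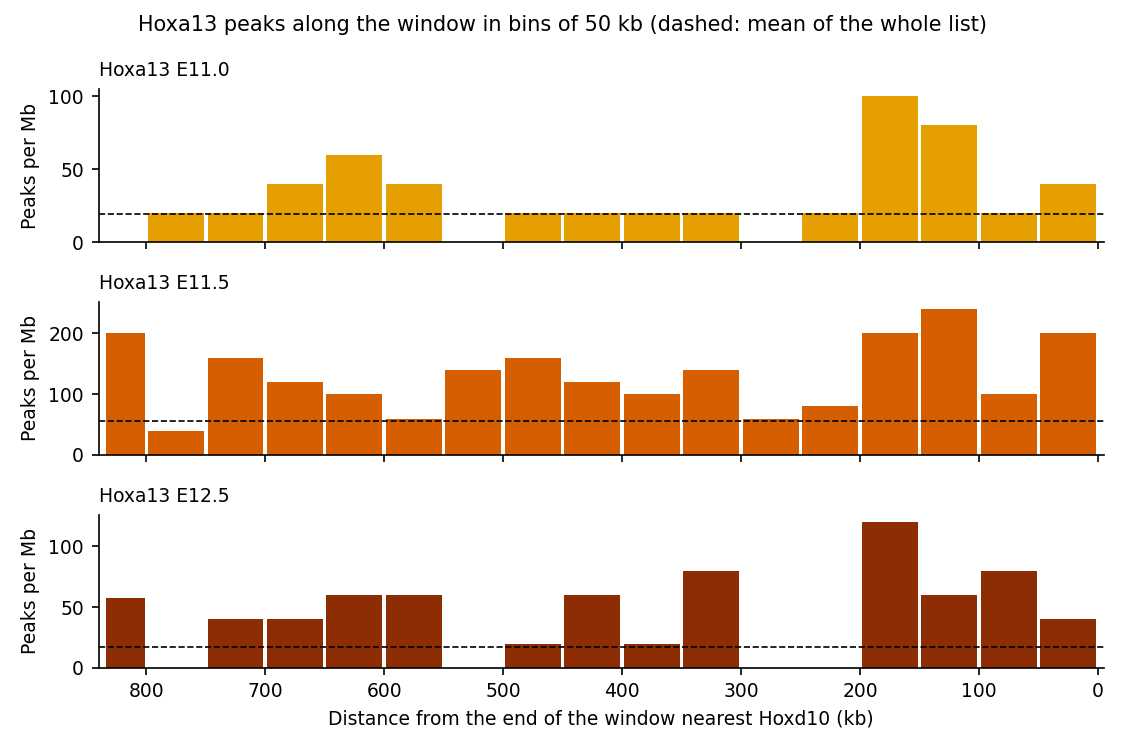
Hoxa13 peaks per Mb (vertical axes) in bins of 50 kb along the window at 3 stages, plotted by distance from the end nearest Hoxd10 (horizontal axis, kb), with the mean of the whole list as a dashed line. The bins between 100 and 200 kb from that end are the highest at E11.0 and include the highest at E11.5 and E12.5, and the bins from 200 to 300 kb hold no E12.5 peak.

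Peaks of the 5 lists that overlapped by at least 1 bp were merged into 116 sites, with a median of 4115 bp between neighbours. Hoxa13 was present at 112 of them and Hoxa11 at 9. Sites of E11.5 alone were the most common among those with Hoxa13, 70 of them, 1 of which also held Hoxa11 in both replicates. Another 13 sites held E11.5 with E12.5 only, 6 held E11.5 with E11.0 only, 4 held E12.5 alone and 2 held E11.0 alone. None joined the outer stages while lacking E11.5. The remaining 17 sites held Hoxa13 at all 3 stages. These classes of site were not counted over the whole lists, so they have no background, and E11.5 also has the longest list (143460 peaks).

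**Figure D3:**
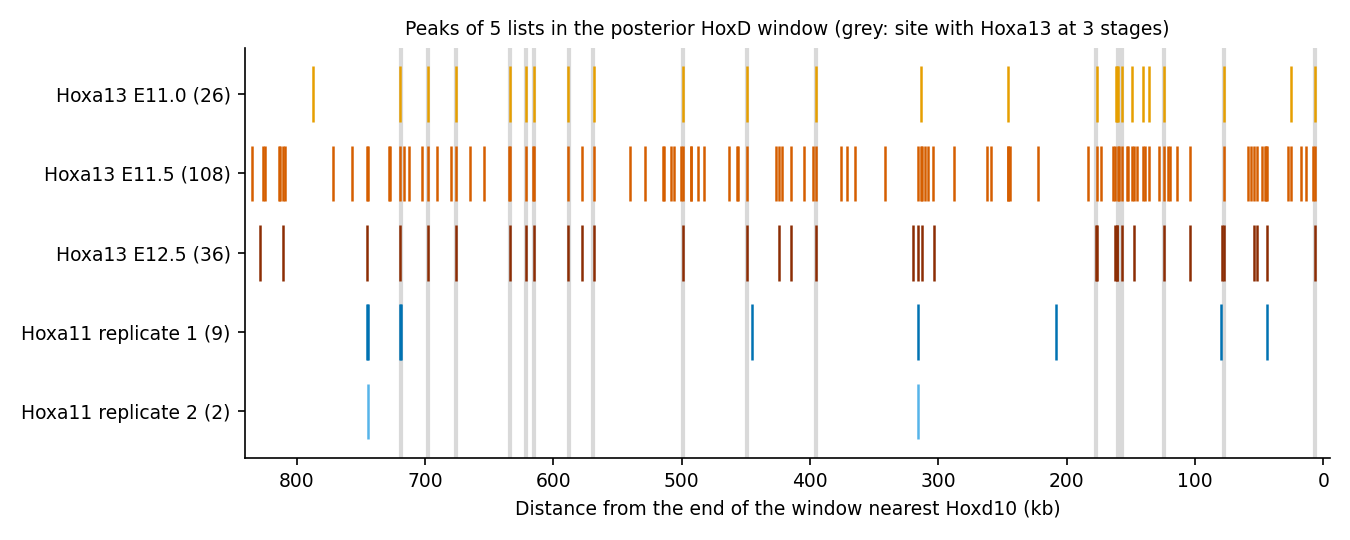
Position of every peak (vertical bars, 1 row per list, with the number of peaks in brackets) by distance from the end of the window nearest Hoxd10 (horizontal axis, kb). Grey lines mark the 17 sites with Hoxa13 at all 3 stages: 8 of them lie in the left part of the desert and 6 within 200 kb of the right end, and Hoxa11 replicate 2 has only 2 peaks.

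The 17 sites of all stages are listed by position along the landscape, and whether they form groups was not tested. On the far side of the desert lay 8 of them, from 73815404 to 73816198, 73836713 to 73837579, 73858996 to 73859412, 73900636 to 73901740, 73913505 to 73914009, 73919281 to 73919984, 73946300 to 73946769 and 73966211 to 73966740. Further sites in the middle ran from 74035768 to 74036125, 74086055 to 74086451 and 74139365 to 74139820. Then followed a long stretch with no site of all stages, from 74139820 to 74358063. In the last 200 kb there were 6, from 74358063 to 74358887, 74373862 to 74375409, 74377760 to 74378124, 74410742 to 74411425, 74457384 to 74458278 and 74528259 to 74528900. The last of these is the only one in the final 50 kb and is also the last site of the window. Its E11.0 and E12.5 peaks lie 224 bp apart and are joined only through the E11.5 peak, whereas at the other 16 sites an E11.0 and an E12.5 peak overlapped. The first site of the window, from 73700319 to 73700565, held E11.5 alone.

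Sites of all stages were wide at E11.5. Their merged intervals had a median of 642 bp, against 300 bp for the other 99 sites. A merged interval spans all its peaks, and a wider peak has more room to meet others. These widths are therefore not independent of the overlap rule, and the widths of such sites outside the window were not measured. At E11.5 the 17 peaks ran from 356 to 1548 bp, all were wider than the median of that list (286 bp) and 13 were in its widest 10%. Since some sites held 2 peaks of a stage (in all 18 for E11.0 and 19 for E12.5), the widest per site was taken. At E11.0 these ran from 213 to 538 bp, with 12 above the list median of 245 bp and 3 in the widest 10%. At E12.5 they ran from 112 to 895 bp, with 13 above the list median of 154 bp and 5 in the widest 10%. Across all peaks of the window, 19.2%, 20.4% and 19.4% were in the widest 10% of their lists in the order of the stages.

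The widest peaks stood at different sites at different stages. At E11.5 the widest peak ran from 74373862 to 74375409 (1548 bp) and ranked 61 of 143460 in its list. E11.0 listed 2 peaks and E12.5 listed 2 inside it. It was followed by 74393743 to 74395099 (1357 bp, rank 100) and 73900636 to 73901740 (1105 bp, rank 233). At E11.0 the widest peak, from 74394521 to 74395149 (629 bp, rank 613 of 50890), met the E11.5 peak of rank 100, but the nearest E12.5 peak was 7017 bp away. It was followed by 74358350 to 74358887 (538 bp) and 74289115 to 74289524 (410 bp). At E12.5 the widest, from 74457384 to 74458278 (895 bp), ranked 52 of 44699. The same site was 776 bp wide at E11.5 (rank 1232) and 227 bp at E11.0 (rank 30185 of 50890). It was followed by 73836755 to 73837342 (588 bp) and 74110521 to 74110963 (443 bp). No site was thus among the 3 widest at every stage. Width is not a measure of binding strength, and these 3 lists hold no other value.

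**Figure D4:**
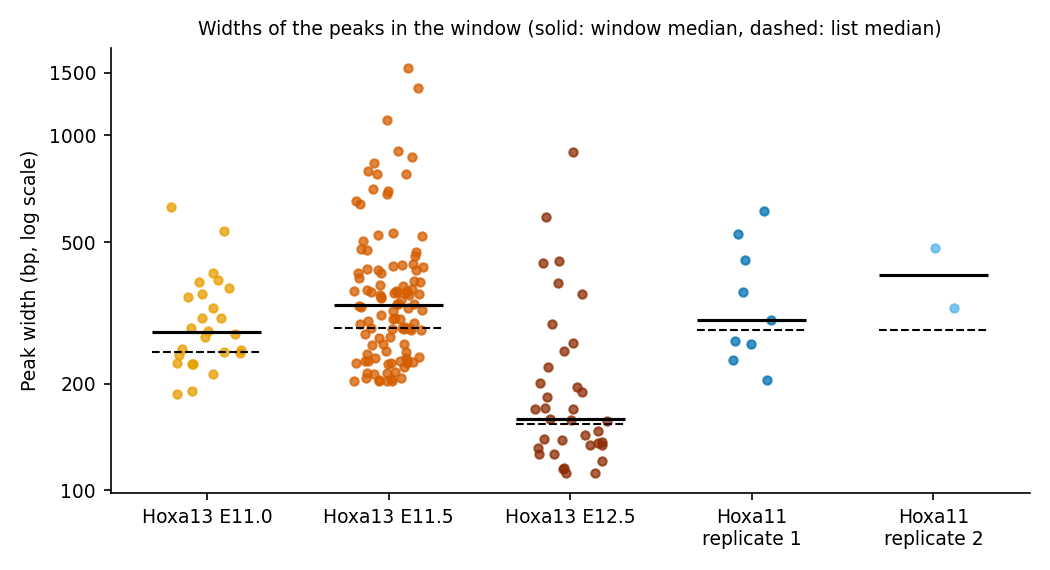
Width of each peak in the window (vertical axis, bp, log scale) by list (horizontal axis), with the median of the window as a solid line and that of the whole list as a dashed line. The solid line lies above the dashed line in each list, by little at E12.5 (158 against 154 bp), and single peaks reach 1548 bp at E11.5 and 895 bp at E12.5.

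Hoxa13 peaks of the early autopod and of E12.5 met E11.5 peaks more often in the window than in their whole lists. At E11.0, 24 of 26 peaks (92.3%, interval 74.9 to 99.1) overlapped an E11.5 peak, against 58.1% of the whole list. At E12.5, 32 of 36 (88.9%, 73.9 to 96.9) did, against 70.7%. For the outer stages the number was 16 of 26 E11.0 peaks (61.5%, 40.6 to 79.8) that met E12.5, against 30.7%, and each of these also met E11.5. The share of E11.0 peaks that met both other stages was therefore the same 61.5%, against 26.8%. From the E12.5 side, 16 of 36 (44.4%, 27.9 to 61.9) met E11.0, against 35.6%, and 44.4% met both, against 30.8%, both within the interval.

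The dense E11.5 list gave shares nearer its own background. Of its 108 peaks, 24 (22.2%, 14.8 to 31.2) met E11.0, against 20.5%, and 30 (27.8%, 19.6 to 37.2) met E12.5, against 21.7%. Peaks that met both numbered 17 (15.7%, 9.45 to 24), against 9.6%. The 71 E11.5 peaks that met neither were 203 to 834 bp wide, with a median of 295 bp. The share of the whole list that met neither is not given here, so their number is not a trait of the window.

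These overlaps moved with the density and the rule. E11.5 peaks covered 5.06% of the window and 1.74% of the span of all chromosomes, and the part of this cover in the result was not tested. With the widest 44699 peaks of each list, E11.5 was met by 92% of E11.0 peaks in the window and 72.2% of E12.5 peaks, against 36.1% and 43.2% of the lists, and 64% of E11.0 peaks met E12.5, against 32.8%. Under a rule of 50% reciprocal overlap, E11.5 was met by 46.2% of E11.0 peaks and 30.6% of E12.5 peaks, against 47.3% and 29.6%, so the excess over the lists was gone. The share of E11.0 peaks that met E12.5 was then 42.3%, against 19.2%, and that of E12.5 peaks that met E11.0 was 30.6%, against 21.9%. The excess of E11.0 peaks that met both other stages was also gone (15.4%, against 14.4%), and for E12.5 the share was 11.1%, against 11.7%. E11.5 peaks that met E11.0 fell below their list (11.1%, against 16.8%), those that met E12.5 were near it (10.2%, against 9.23%) and those that met both were below it (0.926%, against 3.79%). In the lists of equal length the shares of E11.5 peaks were 40.7% for E11.0, 44.4% for E12.5 and 31.5% for both, against 35.7%, 42% and 22%, so the whole list rose with the window.

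**Figure D5:**
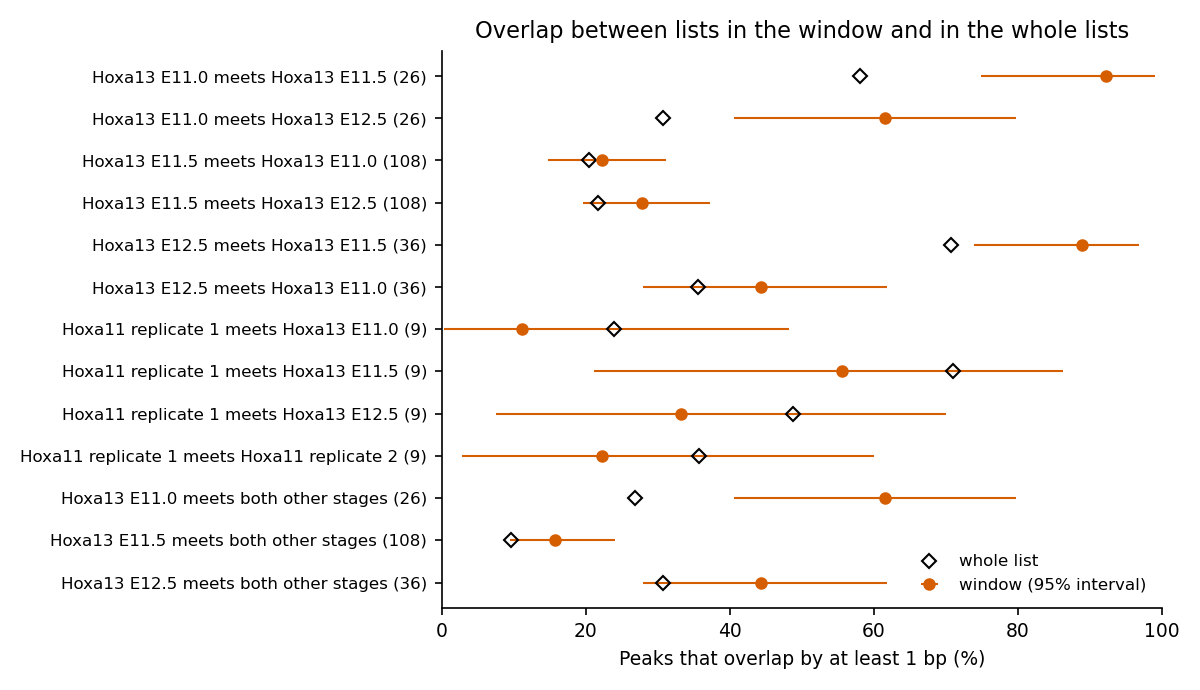
Share of peaks that overlap another list by at least 1 bp (horizontal axis, percent) for each pair of lists (vertical axis, with the number of peaks in the window in brackets), as circles with exact 95% intervals for the window and as diamonds for the whole list. The intervals of E11.0 with E11.5, with E12.5 and with both, and of E12.5 with E11.5, lie above the diamond, while every Hoxa11 interval contains it.

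Few E11.0 or E12.5 peaks stood away from E11.5. The 2 E11.0 peaks without E11.5 ran from 73747426 to 73747612, 15207 bp from the nearest, and from 74373482 to 74373724, only 137 bp from the widest E11.5 peak. The 4 at E12.5 lay at 73705987 to 73706098, 74214789 to 74214925, 74231427 to 74231615 and 74455825 to 74455945, at 2481, 3887, 374 and 1439 bp from the nearest E11.5 peak. They were 112 to 189 bp wide.

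Hoxa11 peaks were few in number in the window, but their density was 9.66 (replicate 1) and 3.88 (replicate 2) times the list mean. Replicate 2 listed 2 of them. The stronger lay 316 kb from the end nearest Hoxd10, in the merged site from 74218811 to 74219381. In the authors' deposited values for replicate 2 its fold enrichment was 9.18 and its −log10 q was 54.5, and it ranked 18 of 1647 by score, where the median fold of that list was 3.9. Replicate 1 gave a peak of 528 bp there and Hoxa13 was present at E11.5 and E12.5, while the nearest E11.0 peak was over 2 kb away (2103 bp from the replicate 1 peak). The summit of replicate 2, at 74219159, lay 86 bp from the centre of the E11.5 Hoxa13 peak and 5 bp from that of the E12.5 peak. The E12.5 peak at this site (436 bp) ranked 726 of 44699 by width.

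The second site of both replicates lay at the far end of the desert, 744 kb from the end, from 73790328 to 73791259. Its deposited fold enrichment was 4.55 with a −log10 q of 14.2, rank 319 of 1647. It held Hoxa13 at E11.5 alone, and the summit at 73790861 was 18 bp from the centre of that Hoxa13 peak. The site before it, from 73789412 to 73790314, only 13 bp away, held Hoxa11 replicate 1 with Hoxa13 at E11.5 and E12.5. These neighbours, with the site of all stages from 73815404 to 73816198, where Hoxa11 replicate 1 was also found, and a peak of replicate 1 alone beside it (73816209 to 73816472), held 4 of the 9 replicate 1 peaks, all between 73789412 and 73816472.

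The other Hoxa11 peaks came from replicate 1 only. One, in the merged site from 74490556 to 74491595 and 44.2 kb from the end nearest Hoxd10, coincided with Hoxa13 at E11.5, and the site also held E12.5. Those from 74089687 to 74089890, 74326275 to 74326637 and 74455426 to 74455727 met no Hoxa13 peak, although the last was 97 bp from an E12.5 peak. The peak from 74326275 to 74326637 stood in the sparse stretch, 13454 bp from the nearest Hoxa13 peak of any stage. No peak of replicate 2 was listed in the last 200 kb, where replicate 1 had 2.

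Hoxa11 replicate 1 peaks of the window met the other lists in lower shares than their whole list, within wide intervals. Of the 9 replicate 1 peaks, 5 (55.6%, 21.2 to 86.3) met Hoxa13 at E11.5, against 71% of the whole list. At E12.5 it was 3 (33.3%, 7.49 to 70.1), against 48.8%, and at E11.0 it was 1 (11.1%, 0.281 to 48.2), against 23.9%. Replicate 2 was met by 2 (22.2%, 2.81 to 60), against 35.8%. All 4 intervals contain the value of the whole list, and with 9 peaks they are too wide to show a difference of this size. With the widest 44699 peaks of each Hoxa13 list, the share for E11.5 was 55.6%, against 57.6% of the whole list. In that setting the share was 33.3% for E12.5, against 48.8%, and 11.1% for E11.0, against 22.9%. The titles give Hoxa11 replicate 1 the same input DNA as the E11.5 Hoxa13 library, and its part in their overlap was not tested.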

How the data were processed

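ChIP-seq peaks of Hoxa13 (3 lists) and Hoxa11 (2 lists) were analysed. The other 4 of the 9 samples are input DNA and were not analysed here. The submitters' processing notes name build mm9 and the tools MACS2 2.1.0, Bowtie2 2.2.2 and CASAVA 1.4, and their roles, thresholds and use of the input are not given in the sources used here. The deposited lists of Hoxa13 and of Hoxa11 replicate 1 hold positions only. For Hoxa11 replicate 2 the authors also deposited a fold enrichment ratio, −log10 p-values and q-values, and a score, which in 100% of peaks is the −log10 q times 10, rounded down. These rank peaks within that list only. Read depth is not known, so it gives no measure of precision.

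Peaks were members by their start, and lists were compared by an overlap of at least 1 bp. Intervals are exact Clopper-Pearson at 95% and cover counting error over peaks, which are not replicates. List means refer to chromosomes 1 to 19, X and Y from the first to the last peak. Windows of equal length were laid end to end. No significance test was made. The overlap code was tested on simulated data. Python 3.11.15, pandas 2.3.3 and SciPy 1.17.1 were used.

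Sites were named where they held Hoxa11, Hoxa13 at all 3 stages or at least 3 lists, as were the 3 widest Hoxa13 peaks per stage and the first and last site. E11.0 and E12.5 peaks that met no E11.5 peak, and peaks next to the window, were named after their values were seen. The members and lists were chosen with earlier results of these data known. Peak sequence was not used here, since no genome of build mm9 was in hand.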

Additional observations from a re-analysis of the deposited data

How the results depend on the processing

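Alternatives changed one choice at a time and gave 69 values, of which 52 stayed near the first value: counts and ratios within 1.5 times, and shares within their interval. With the widest 44699 peaks of each list, the E11.5 count fell to 54 peaks and its density over the list rose to 3.75. In that setting the share of E11.5 peaks that met another stage was 40.7% for E11.0, 44.4% for E12.5 and 31.5% for both (35.7%, 42% and 22% of the whole list), and 72.2% of E12.5 peaks met E11.5. Under 50% reciprocal overlap, 46.2% of E11.0 peaks met E11.5, 11.1% of E11.5 met E11.0, 10.2% of E11.5 met E12.5 and 30.6% of E12.5 met E11.5, against 47.3%, 16.8%, 9.23% and 29.6% of the whole lists. Under this rule both other stages were met by 15.4% (E11.0), 0.926% (E11.5) and 11.1% (E12.5) of peaks, against 14.4%, 3.79% and 11.7%. The window thus lost its excess for E11.0 peaks that met E11.5 or both and for E12.5 peaks that met E11.5 or both. It lay below the list for E11.5 peaks that met E11.0 or both. Between the outer stages it stayed above the lists, at 42.3% of E11.0 peaks, against 19.2%, and 30.6% of E12.5 peaks, against 21.9%. Peak widths differ between lists, and the cause was not tested. With both ends moved 50 kb outwards, Hoxa11 replicate 2 had 4 peaks and a density ratio of 6.94. Without one Hoxa11 replicate, the number of sites with Hoxa11 ran from 2 (without replicate 1) to 9 (without replicate 2), and those with Hoxa13 at E11.5 from 2 to 5. The other settings, the denominator of chromosome 2 alone, ends moved inwards, merging within 500 bp, bins of 50 kb and a higher score for replicate 2, moved no count or ratio by over 1.5 times, and the densest 50 kb bin of each stage lay inside the densest 100 kb bin. Each Hoxa13 stage has 1 library, so no difference between stages has a replicate check.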
